A study of Mus musculus with 50 samples.

Results

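The Usp17l genes encode ubiquitin-specific proteases of the Usp17 (DUB) family. Of the 35750 genes in the deposited table, 5 carried the name of a family member, Usp17la, Usp17lb, Usp17lc, Usp17ld and Usp17le, and all 5 were taken by symbol and followed singly and as their sum. The libraries were made from pools of 5 wild-type C57BL6/J mouse embryos, from females of 3 to 12 weeks mated to males of the same strain. At 24 h after the hormone hCG, zygotes received 200 ng/µl of Duxbl-V5-2A-NLS-mCherry mRNA (Duxbl embryos), which codes for Duxbl, a 2A peptide and a nuclear mCherry protein, or 200 ng/µl of NLS-mCherry mRNA (mCherry embryos), or were left uninjected. Harvest was timed from hCG, at 28 to 30 h for the late 1-cell stage (late 1C), at 32 h for the early 2-cell stage (early 2C) and at 48 h for the late 2-cell stage (late 2C). Uninjected and mCherry embryos gave 6 libraries at each stage, and Duxbl embryos gave 4, 5 and 5. The study asks how Duxbl acts on the exit from totipotency, and Duxbl was supplied from outside in every Duxbl group, above the level that the embryo makes itself.

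Ubiquitin is a small protein that is linked to other proteins and marks them for degradation or for other fates. Deubiquitinases such as the Usp17 enzymes cut it off again, through a catalytic cysteine, and so oppose the ubiquitin ligases. The mouse Usp17l genes were first described as cytokine-inducible immediate-early genes of blood cells. They lie in tandem clusters of near-identical copies, and their transcripts appear in mouse embryos with the burst of transcription at the 2-cell stage, alongside those of Zscan4, Eif1a-like genes and the MERVL retroelement. Dux, a double homeobox transcription factor, activates this 2-cell set, and Duxbl is a related double homeobox protein.

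All members lay on chromosome 7 in the authors' mm39 coordinates. Usp17ld (ENSMUSG00000057321, 102898944 to 102901712, minus strand; also named Dub2a) and Usp17lc (ENSMUSG00000058976, 103064279 to 103069087, plus strand; Dub2) formed a first pair. Usp17le (ENSMUSG00000043073, 104417256 to 104426677, minus strand; Dub3), Usp17lb (ENSMUSG00000062369, 104489464 to 104491810, minus strand; Dub1a) and Usp17la (ENSMUSG00000054568, 104506216 to 104511874, plus strand; Dub1) lay further along. In GENCODE M21 models of the older build GRCm38, the longest transcripts had coding lengths of 1404 bases (Usp17lb) to 1635 bases (Usp17lc and Usp17ld). Aligned coding sequences of Usp17lc and Usp17ld were 98.4% identical, and the other 9 pairs were 90.7% to 94.5% identical. Of all stretches of 75 bases, the read length, 51.2% in Usp17lc and 43.4% in Usp17ld also occurred in another member, against 15.4% in Usp17lb, 12.2% in Usp17le and 6.16% in Usp17la. Reads from these stretches cannot be assigned by sequence alone, so the values of single copies, above all of Usp17lc and Usp17ld, are uncertain. How the authors treated such reads is not given in the sources used here, and the sum is uncertain too if they were dropped or counted more than once.

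The start regions of the copies were also alike. RefSeq promoters of build GRCm38.p6, from 250 bases before to 50 bases after the annotated start, were listed for Usp17la, Usp17lb, Usp17lc and Usp17ld. Their upstream parts were 90.3% to 97.3% identical over the aligned bases, which were 171 to 228 of the 250. Bases set against a gap are not counted in these values. The upstream parts are shown to make visible how alike the copies are outside their coding sequence. Each line gives the 200 bases before the start, 5′ to 3′ on the gene's own strand, and capitals mark TATAAA and CCAAT, the latter also as its reverse ATTGG.
Usp17la, chr7:104856816-104857015, plus strand: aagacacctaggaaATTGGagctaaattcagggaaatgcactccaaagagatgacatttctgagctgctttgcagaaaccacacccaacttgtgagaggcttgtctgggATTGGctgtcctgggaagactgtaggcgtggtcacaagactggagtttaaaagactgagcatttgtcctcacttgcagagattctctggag
Usp17lb, chr7:104842584-104842783, minus strand: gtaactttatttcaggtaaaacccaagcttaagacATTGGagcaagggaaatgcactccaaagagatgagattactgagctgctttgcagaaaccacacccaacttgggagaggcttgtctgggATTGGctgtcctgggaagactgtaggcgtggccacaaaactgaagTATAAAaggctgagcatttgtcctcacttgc
Usp17lc, chr7:103416496-103416695, plus strand: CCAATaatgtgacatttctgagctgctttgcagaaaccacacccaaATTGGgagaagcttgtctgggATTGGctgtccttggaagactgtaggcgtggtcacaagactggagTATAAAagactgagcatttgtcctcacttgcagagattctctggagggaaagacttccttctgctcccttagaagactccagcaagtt
Usp17ld, chr7:103252506-103252705, minus strand: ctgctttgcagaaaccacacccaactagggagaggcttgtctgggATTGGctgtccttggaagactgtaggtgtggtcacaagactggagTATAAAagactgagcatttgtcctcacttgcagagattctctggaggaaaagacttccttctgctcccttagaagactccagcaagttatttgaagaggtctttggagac

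In these 300-base windows, searched on both strands, CCAAT was found in 4 of 4 members and in 37.4% of all 32851 RefSeq promoters. TATAAA was found in 3 of 4 (Usp17lb, Usp17lc and Usp17ld), against 13.6% of all promoters, and began 31, 88 and 110 bases before the annotated start in that order. GATTNNATC, the core of a form described for double homeobox proteins, was in 0 of 4 and in 1.58% of all promoters. These are matches of letters in a fixed window and say nothing about binding.

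Library totals of the deposited values ran from 22.5 M to 27.0 M (late 1C), 22.3 M to 26.4 M (early 2C) and 12.04 M to 22.5 M (late 2C). At late 2C they were 18.77 M to 22.53 M in Duxbl, 12.76 M to 18.75 M in mCherry and 12.04 M to 18.21 M in uninjected libraries. Every Duxbl library thus had a larger total than every control library of that stage. The part of this in the late 2C differences was not tested. The deposited values look like counts scaled per library and rounded, so they were not taken to give the depth. Levels are given in CPM, here deposited values relative to the scaled library total, and differences are on the log2(CPM + 1) scale, which understates those of low genes. The Duxbl1 gene, to which both injected and endogenous transcripts contribute, stood at 1374 to 4816 CPM in the Duxbl libraries and at 82.7 to 642 CPM in all others. All 10 markers of eggs and early embryos (among them Zp3, Gdf9 and Nlrp5) were present, with sums of 1578 to 10414 CPM. In a pool of 5 embryos, fewer embryos with a transcript and less transcript per embryo cannot be told apart. The labels do not say how the pools relate to litters, so p-values measure the spread between these pools.

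In uninjected embryos the family was present at a low level at late 1C and higher at early 2C. Usp17lc, the copy with the largest share of the signal at late 1C, stood at 4.41, 15.0, 8.27, 13.9, 7.62 and 5.27 CPM in libraries 1, 3, 4, 5, 6 and 7. At early 2C the same numbers gave 49.7, 48.7, 85.2, 24.2, 39.2 and 15.7 CPM, above every late 1C library. limma put the rise at 2.08 on the log2 scale (SE 0.44, adjusted p 0.00225).

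All 5 members rose in this step, against 1.12% of the 28808 genes tested that were called higher. Usp17la had the largest rise, by 3.40 (SE 0.52, limma adjusted p 1.67e-05), from a median of 1.61 CPM (0.0428 to 3.24) to 21.1 (7.39 to 74.9). Usp17le rose by 2.59 (limma adjusted p 2.26e-04), Usp17lb by 2.12 (0.00472) and Usp17ld by 2.09 (0.0129). The ranges of 3 members did not overlap between the stages (Usp17la, Usp17lc and Usp17ld), against 1.27% of tested genes that were wholly higher. Library 7 of early 2C was the lowest for all 5 members, and with 5.17 CPM of Usp17lb and 0.897 of Usp17le it lay within the late 1C range of these 2. Usp17ld narrowly missed the threshold without library 4 of either stage (limma adjusted p 0.0516 and 0.0548) and with a pseudocount of 0.1 CPM (0.0565). With voom weights Usp17lb did not pass (limma adjusted p 0.314), so 4 members were called under each of these settings. The family sum went from 20.9 ± 7.19 CPM (SD, n = 6) to 140 ± 75.8 (n = 6), and the lowest early 2C library, at 37.6 CPM, exceeded the highest late 1C library, at 32.7 CPM.

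Between early and late 2C the copies parted. Usp17lb in uninjected embryos stood at 64.8, 43.0, 32.8, 12.9, 22.3 and 5.17 CPM at early 2C in libraries 1, 3, 4, 5, 6 and 7. At late 2C it stood at 342, 804, 140, 152, 628 and 1206 CPM in libraries of the same numbers. Every late 2C library was above every early 2C library, with libraries 4 and 5 the lowest of the later stage. The rise was 4.08 on the log2 scale (SE 0.48, limma adjusted p 2.81e-10).

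Usp17lb was the only member called in this step, so 1 of 5 rose where 30.8% of tested genes were called higher. It was also the only member whose ranges did not overlap, against 17.0% of tested genes. The difference was 0.96 for Usp17lc (limma adjusted p 0.0600), 0.24 for Usp17ld, -0.84 for Usp17le and -0.86 for Usp17la (limma adjusted p 0.124 to 0.737 for these 3). Usp17lc passed with library totals alone, with voom weights and in a fit of the 2 groups compared. Single omissions moved the calls too: Usp17lc passed without early 2C library 1 or 4 or late 2C library 4, and Usp17le passed as lower without library 7 of either stage. With this one copy the family sum stood at 677 ± 482 CPM at late 2C (n = 6), although its lowest library, at 185 CPM, lay within the early 2C range of 37.6 to 210 CPM.

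mCherry embryos gave no member that differed from uninjected embryos at any stage. The count was 0 of 5 at each of the 3 stages, and limma called 0% of all tested genes, with 556, 790 and 388 genes at an unadjusted p under 0.05. With voom weights no member was called either. At early 2C all 5 differences were below 0, from -0.51 (SE 0.41) for Usp17ld to -0.89 (SE 0.48) for Usp17le, and the family sum was 80.9 ± 37.2 CPM (n = 6) in mCherry against 140 ± 75.8 in uninjected embryos. The ranges overlapped for every member at every stage.

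The first step in mCherry embryos was called for fewer members than in uninjected embryos. The courses of these groups were not tested against each other. From late 1C to early 2C, 2 of 5 rose, Usp17lb by 2.20 (SE 0.48, limma adjusted p 0.00648) and Usp17la by 2.17 (SE 0.52, 0.0163), where 0.555% of tested genes were called higher. Without late 1C library 1 or 7, or without early 2C library 3 or 5, Usp17la no longer passed and the count was 1, as it was with a pseudocount of 0.1 CPM, and with voom weights it was 0. The ranges of Usp17la and Usp17le did not overlap between these stages, against 0.830% of tested genes, and Usp17le missed the threshold (1.67, SE 0.47, limma adjusted p 0.0591) but passed without early 2C library 4 (0.0466).

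From early to late 2C in mCherry embryos, Usp17lb rose by 4.67 (SE 0.48, limma adjusted p 5.90e-12) and Usp17lc by 1.97 (SE 0.44, 1.42e-04). These were 2 of 5 members, where 31.1% of tested genes were called higher, and both were wholly higher, as were 18.7% of tested genes. Usp17lb stood at 190, 1197, 238, 204, 774 and 436 CPM in late 2C libraries 1, 3, 4, 5, 6 and 7, and at no more than 30.3 CPM at early 2C. Usp17lc stood at 70.5 to 98.0 CPM in 5 late 2C libraries and at 289 CPM in library 3. Usp17ld passed as a further member without early 2C library 3 (limma adjusted p 0.0437) and with library totals alone (1.21, 0.0491).

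**Figure D1:**
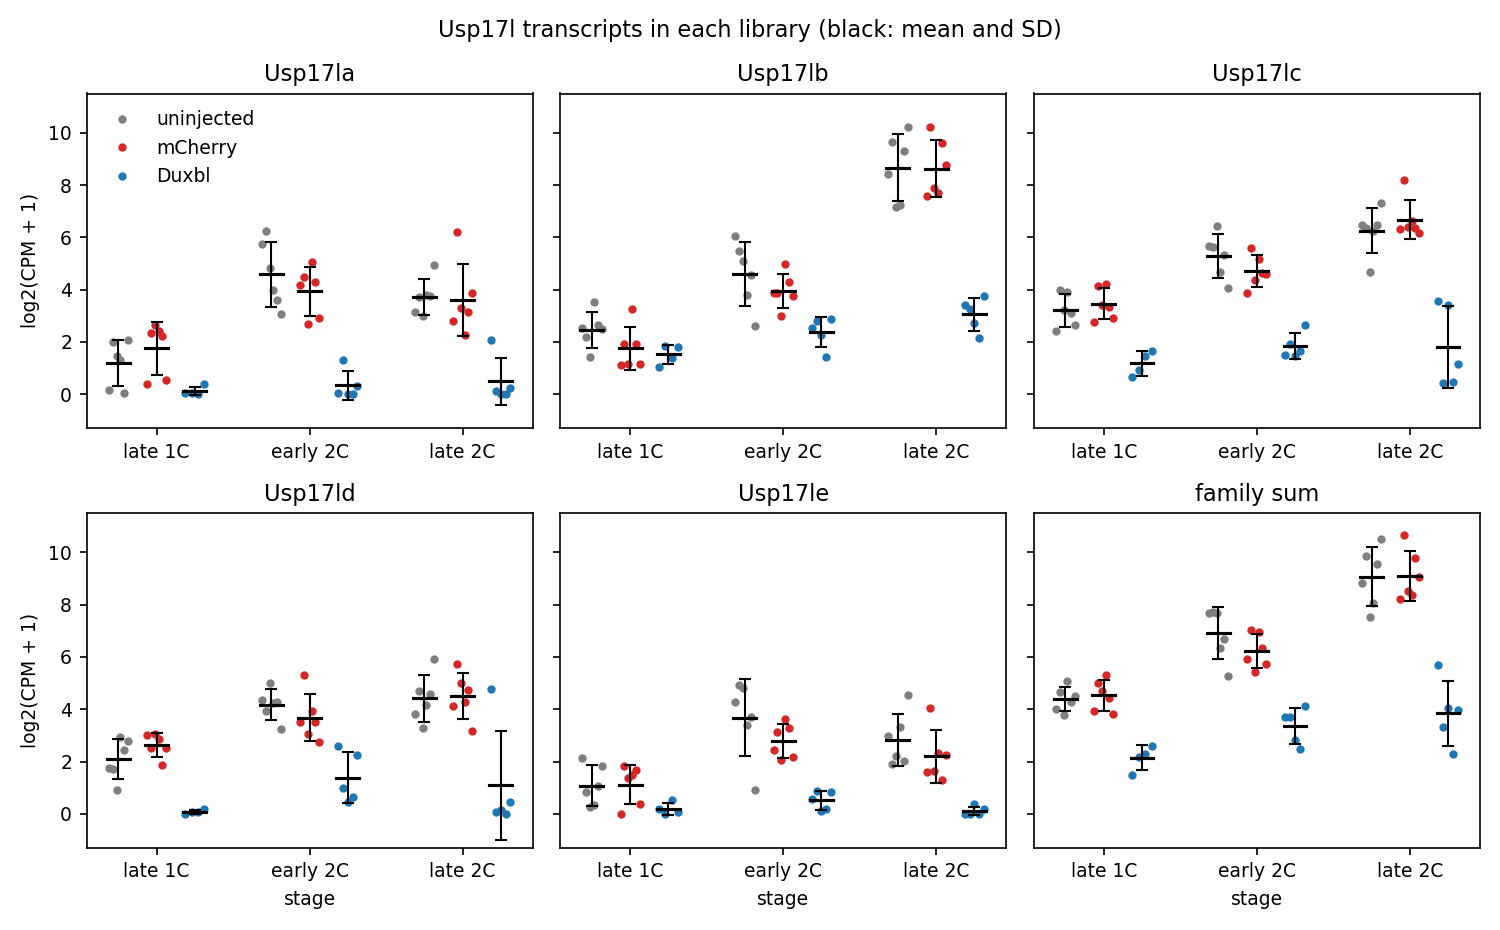
Level of each Usp17l gene and of the family sum in every library, as log2(CPM + 1) on the y axis, by stage on the x axis. Grey points are uninjected, red mCherry and blue Duxbl libraries, and black bars give mean and SD of the plotted log2 values. Usp17lb reaches 140 to 1206 CPM at late 2C in uninjected and mCherry embryos and at most 12.6 CPM in Duxbl embryos.

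The make-up of the family differed between the stages in control embryos. In uninjected embryos Usp17lb made up 20.0 ± 6.45% of the family sum at early 2C and 76.6 ± 10.5% at late 2C (SD, n = 6 each), and in mCherry embryos 20.3 ± 5.58% and 72.5 ± 10.2%. Its highest share in an early 2C control library was 31.7%, and its lowest in a late 2C control library was 57.3%. At late 1C and early 2C the largest share was that of Usp17lc, with 43.8% and 33.3% in uninjected embryos. These are shares of CPM that were not divided by exon length. Usp17la made up 20.6 ± 8.94% at early 2C and 2.55 ± 1.41% at late 2C in uninjected embryos, and these ranges did not overlap either.

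Levels between copies were compared per kb of annotated exon in GENCODE M21. In uninjected late 2C embryos Usp17lb stood at 349 ± 267 CPM per kb (SD, n = 6), Usp17lc at 34.9 ± 17.2, Usp17ld at 12.3 ± 9.11, Usp17la at 5.13 ± 3.05 and Usp17le at 3.99 ± 3.77. At early 2C the copies lay closer together, from 8.15 ± 5.47 CPM per kb for Usp17le to 19.3 ± 13.9 for Usp17lb. The exon models come from another build than the counts, and Usp17lb has the shortest, so levels per kb rest on these annotations. The order at late 2C was the same in CPM not divided by length. At early 2C it was not: Usp17lc had the highest mean in CPM (43.8, against 30.2 for Usp17lb). Per kb it stood at 17.9, below Usp17lb.

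**Figure D2:**
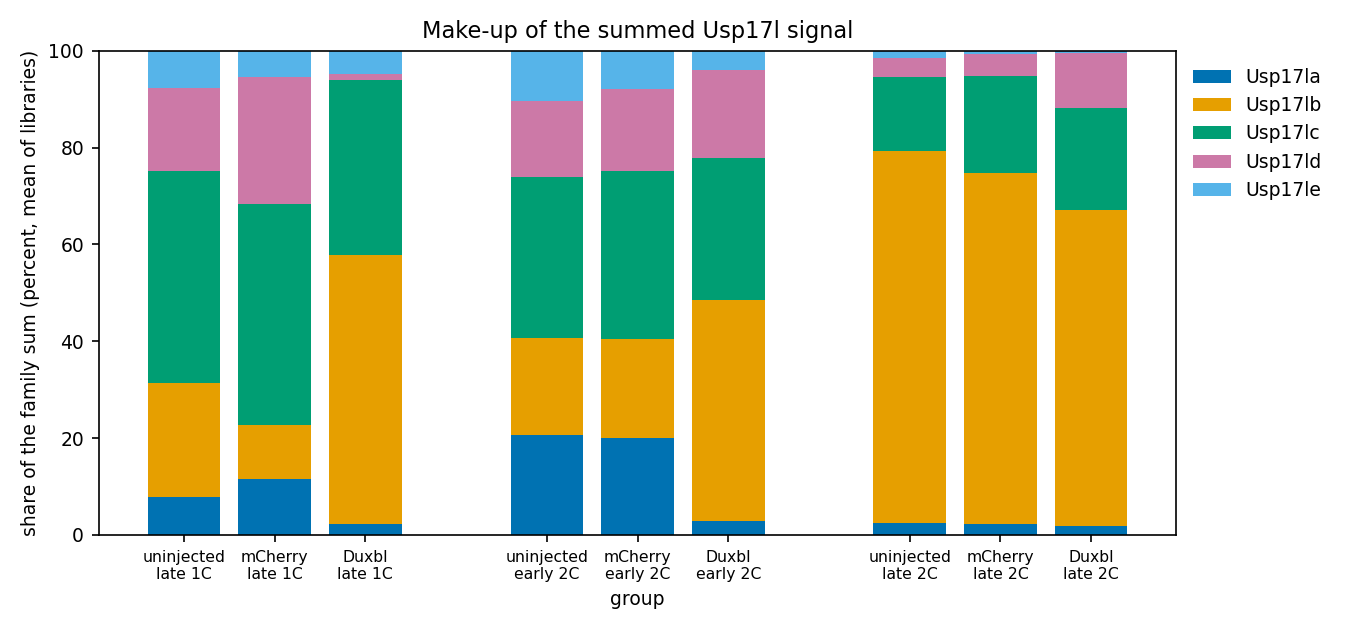
Mean share of each copy in the summed Usp17l signal, in percent on the y axis, for the 9 groups on the x axis. The share of Usp17lb is 20.0% and 20.3% in uninjected and mCherry embryos at early 2C, and 76.6% and 72.5% at late 2C.

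Duxbl embryos had less of the family than mCherry embryos already at late 1C. Usp17ld stood at 0, 0.0428, 0.0435 and 0.127 CPM in Duxbl libraries 4 to 7, against 7.06, 4.77, 7.25, 6.36, 2.61 and 4.68 CPM in mCherry libraries 1, 3, 4, 5, 6 and 7. Usp17lc stood at 0.564, 0.899, 1.78 and 2.15 CPM in Duxbl and at 5.83 to 17.5 CPM (median 9.37) in mCherry embryos. For both copies every Duxbl library was below every mCherry library, and Usp17ld was near 0 in all 4.

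limma called Usp17ld lower by -2.47 (SE 0.33, adjusted p 0.00179) and Usp17lc by -2.25 (SE 0.34, 0.00743). These were 2 of 5 members, where 0.0144% of the 20777 genes tested were called lower, 3 genes in all. Gm38271 was the other gene called lower, named here after its values were seen. Usp17ld and Usp17lc are the pair with 98.4% identical coding sequences, so their 2 calls may rest in part on the same reads. Usp17la also lay wholly below mCherry, with at most 0.296 CPM against at least 0.307, but its difference of -1.57 (SE 0.45) had a limma adjusted p of 0.728, and its range overlapped with that of uninjected embryos. So 3 of 5 members did not overlap, against 0.635% of tested genes that were wholly lower. The differences of Usp17le (-0.89, SE 0.37) and Usp17lb (-0.24, SE 0.39) were not called, and Usp17lb stood at 1.08 to 2.57 CPM in Duxbl and 1.18 to 8.53 CPM in mCherry embryos.

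Both calls at late 1C were lost with voom weights, against uninjected in place of mCherry embryos (limma adjusted p 0.0671 for both), in a fit of all 9 groups (0.267 and 0.295) and without the libraries numbered 4 and 5 (0.634 for Usp17lc and 0.153 for Usp17ld). Usp17lc was lost without a filter and without Duxbl library 4 or 5. The family sum stood at 1.82, 3.55, 3.87 and 5.11 CPM in Duxbl libraries 4 to 7, below the 13.3 to 38.5 CPM of mCherry and the 12.8 to 32.7 CPM of uninjected libraries. Its mean in mCherry was 6.61 times that in Duxbl embryos.

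At early 2C, when uninjected embryos held more of every copy than at late 1C, Duxbl embryos again held less of the family than mCherry embryos. Usp17la stood at 0.0429, 1.48, 0, 0 and 0.251 CPM in Duxbl libraries 3 to 7. In mCherry libraries 1, 3, 4, 5, 6 and 7 it stood at 17.3, 21.2, 5.42, 32.3, 18.8 and 6.50 CPM. In 3 of 5 Duxbl libraries it was thus at or near 0, and the highest was below the lowest mCherry library.

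limma called 3 of 5 members lower at early 2C, where 0.354% of the 21180 genes tested were called lower. Usp17la differed by -3.52 (SE 0.50, limma adjusted p 5.15e-04), Usp17lc by -2.82 (SE 0.35, 1.38e-04) and Usp17ld by -2.25 (SE 0.43, 0.0119). Usp17lc stood at 1.77 to 5.27 CPM in Duxbl and 13.6 to 47.3 CPM in mCherry embryos. All 5 members lay wholly below the mCherry libraries, against 0.859% of tested genes.

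Usp17le stood at 0.0884 to 0.828 CPM in Duxbl and 3.12 to 11.3 CPM in mCherry embryos, a difference of -2.21 (SE 0.50) that missed the threshold with a limma adjusted p of 0.0556. It passed with scaling factors over all 50 libraries (0.0469), with deposited values as they stand (0.0475), in a fit of all 9 groups (0.00996), with a pseudocount of 0.1 CPM (-3.65, 0.00695) and without mCherry library 4 (0.0455). Usp17lb differed by -1.55 (SE 0.45, limma adjusted p 0.279), with 1.71 to 6.28 CPM against 7.04 to 30.3 CPM, and overlapped with the lowest uninjected library, at 5.17 CPM. All 5 passed against uninjected embryos and in a fit of the 2 groups compared, and 0 with voom weights. Usp17ld was lost without a filter (limma adjusted p 0.0504), without the libraries numbered 4 and 5 (0.306), and without Duxbl library 5 or 6.

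The family sum at early 2C stood at 12.1, 12.1, 6.01, 4.58 and 16.4 CPM in Duxbl libraries 3 to 7. mCherry libraries ranged from 42.4 to 129 CPM and uninjected libraries from 37.6 to 210 CPM, so no Duxbl library reached either control. The mean was 7.91 times higher in mCherry and 13.7 times higher in uninjected than in Duxbl embryos.

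At late 2C all 5 members were lower in Duxbl than in mCherry embryos. Usp17lb stood at 9.56, 8.51, 5.57, 3.45 and 12.6 CPM in Duxbl libraries 1, 3, 4, 6 and 7, against 190 to 1197 CPM in mCherry (median 337) and 140 to 1206 CPM in uninjected libraries. The mCherry mean was 63.8 times the Duxbl mean. limma put the difference at -5.50 on the log2 scale (SE 0.54, adjusted p 2.12e-08).

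Usp17lc differed by -4.89 (SE 0.57, limma adjusted p 2.88e-07), and its Duxbl libraries fell into 2 at 10.98 and 9.58 CPM (libraries 1 and 4) and 3 at 0.342 to 1.22 CPM. Usp17la (-3.21, SE 0.59, limma adjusted p 8.06e-05) and Usp17le (-2.20, SE 0.52, 0.00114) were listed at 0 in 2 and 3 of the 5 Duxbl libraries. Usp17ld differed by -3.51 (SE 0.72, limma adjusted p 2.65e-04). It was at 0 to 0.361 CPM in Duxbl libraries 3, 4, 6 and 7 and at 26.4 CPM in library 1, within the mCherry range of 8.05 to 52.1 CPM. Without that library its difference was -4.52.

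So 5 of 5 members were called lower at late 2C, where 29.0% of the 23052 genes tested were, and 4 of 5 lay wholly below mCherry, where 19.6% of tested genes did. The median difference over the members was -3.51, against -0.04 over all genes tested. All 11 alternative settings and all 11 omissions of single libraries called all 5. Under library totals alone the median of all genes moved by -0.22, and Usp17lb differed by -5.83. The family sum stood at 50.2, 9, 15.5, 3.82 and 14.5 CPM in Duxbl libraries 1, 3, 4, 6 and 7, against at least 293 CPM in mCherry and 185 CPM in uninjected libraries.

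Markers of other sources of RNA were summed beside these results. At late 1C and early 2C the sums of all 5 marker lists overlapped between the 3 injection groups, with Ptprc at 0 in mCherry and Duxbl and Cdhr4 at 0 in uninjected embryos at late 1C. At late 2C some did not overlap. The blood markers, 4 of 6 in the table, summed to 0 to 13.0 CPM in Duxbl, 25.9 to 43.8 in mCherry and 16.7 to 60.0 in uninjected libraries. Markers of cumulus and granulosa cells, 8 of 9 in the table, summed to 12.3 to 49.0, 9.99 to 18.2 and 7.04 to 21.1 CPM. The 7 oviduct markers summed to 70.1 to 178, 44.7 to 155 and 38.3 to 159 CPM, and the 7 sperm markers to 4.06 to 31.3, 3.20 to 9.87 and 1.87 to 6.73 CPM, with Smcp at 0 in both control groups. The egg and embryo markers summed to 4368 to 5337 CPM in Duxbl and 1578 to 2753 CPM in control libraries. The part of these in the differences of the Usp17l genes was not tested.

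**Figure D3:**
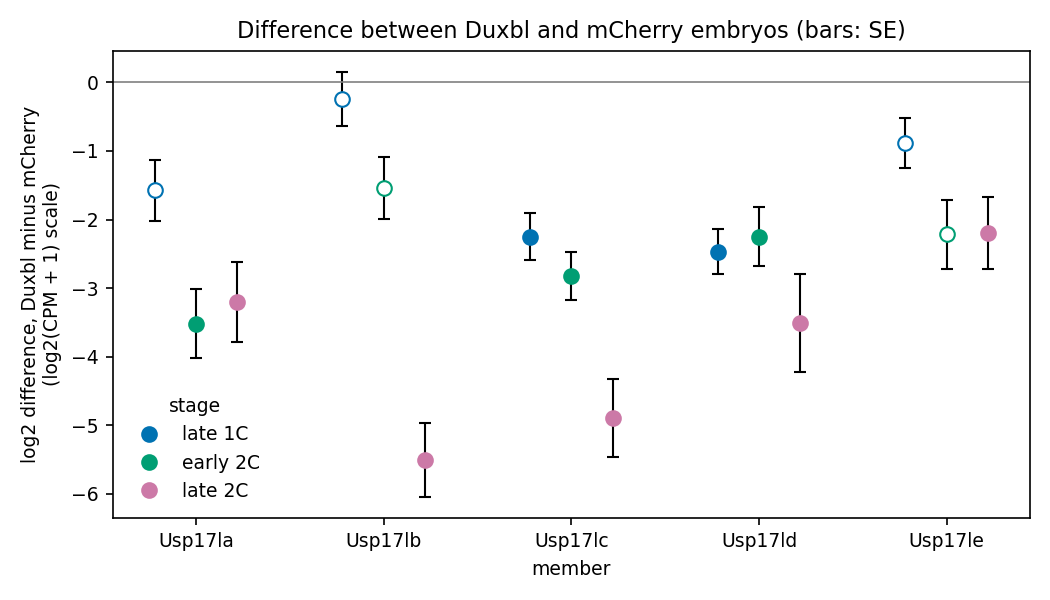
Difference between Duxbl and mCherry embryos for each member on the x axis, in log2(CPM + 1) units on the y axis, at late 1C (blue), early 2C (green) and late 2C (pink), with SE bars. Filled points passed limma's threshold and open points did not. Usp17lb goes from -0.24 at late 1C to -5.50 at late 2C, and Usp17ld is at -2.47, -2.25 and -3.51.

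Whether the Duxbl difference itself changed between stages was tested as an interaction in the fit of all 9 groups. From late 1C to early 2C it changed for 0 of 5 members, where limma called 0.00347% of genes (498 genes at an unadjusted p under 0.05), and it was called for none with voom weights. From early to late 2C it widened for 2 of 5 members, where 23.6% of genes were called lower. Usp17lb moved by -3.99 (SE 0.72, limma adjusted p 8.42e-06) and Usp17lc by -2.01 (SE 0.66, 0.0105). With uninjected embryos as the control or with voom weights, only Usp17lb passed. For Usp17la (0.49, SE 0.77), Usp17le (0.19, SE 0.69) and Usp17ld (-1.12, SE 0.78) the change was not called. Without Duxbl late 2C library 1, Usp17ld passed as well (-2.04, limma adjusted p 0.00616).

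Within Duxbl embryos no member passed the test from stage to stage. limma called 0 of 5 between late 1C and early 2C, where 0.920% of tested genes were called in either direction (2332 genes at an unadjusted p under 0.05), and 0 of 5 between early and late 2C, where 38.9% were called in either direction (13219 genes). With voom weights both counts were 0 as well. The family sum had means of 3.59, 10.2 and 18.6 CPM at the 3 stages, with overlapping ranges. Usp17ld, with no more than 0.127 CPM at late 1C and 0.354 to 4.98 CPM at early 2C, was the one member whose ranges did not overlap in the first step, against 2.25% of tested genes (1.31, SE 0.61, limma adjusted p 0.556), and it passed with a pseudocount of 0.1 CPM. Without Duxbl late 2C library 1 it was called lower in the second step.

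The make-up of the sum in Duxbl embryos was not that of the controls at the early stages. Usp17lb made up 55.5 ± 13.4% of the sum at late 1C (SD, n = 4) and 45.6 ± 10.98% at early 2C (n = 5), against 11.2 ± 6.02% and 20.3 ± 5.58% in mCherry embryos (n = 6 each). Its lowest Duxbl shares, 41.6% and 37.4%, exceeded the highest mCherry shares, 22.1% and 24.6%. These shares rest on sums of at most 16.4 CPM.

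The 9 groups were ordered by their mean level. The sum was highest in uninjected and mCherry late 2C embryos (677 and 672 CPM), followed by uninjected and mCherry early 2C (140 and 80.9), mCherry and uninjected late 1C (23.7 and 20.9), and Duxbl late 2C, early 2C and late 1C (18.6, 10.2 and 3.59). Of its 8 pairs of neighbours in this order 6 overlapped. The gaps were between mCherry late 2C and uninjected early 2C and between mCherry early 2C and mCherry late 1C. Usp17lb, Usp17lc and Usp17ld were also highest at late 2C, whereas Usp17la and Usp17le had their highest mean in uninjected early 2C embryos (31.3 and 16.2 CPM). Among neighbours of single copies 7 of 8 pairs overlapped for Usp17la, Usp17lb and Usp17ld, and 8 of 8 for Usp17lc and Usp17le.

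Other families of the 2-cell stage were summed in the same way for comparison. The Zscan4 sum, of a family of telomere-associated zinc finger genes, had a mCherry mean 1.93 times the Duxbl mean at late 1C, with libraries that overlapped with both control groups, and 11.95 and 73.1 times at early and late 2C without overlap. The sum of 4 Eif1ad genes, which resemble translation initiation factor 1A, had ratios of 4.77, then 21.8 and 24.6. At late 1C its Duxbl libraries (0.609 to 2.34 CPM) overlapped with mCherry (1.46 to 16.3 CPM) but lay below all uninjected libraries (2.74 to 6.61 CPM), and at the later stages they overlapped with neither control. The ratios of the Usp17l sum were 6.61, 7.91 and 36.1, with no overlap with either control at any of the 3 stages. The late 2C ratios rest in part on Duxbl library 1, the highest of the Duxbl libraries in all 3 sums. Without it, a setting chosen after seeing the data, they were 62.7 for Usp17l, 113 for Zscan4 and 83.1 for Eif1ad, so that the order of Usp17l and Eif1ad turned. Differences between the families were not tested.

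**Figure D4:**
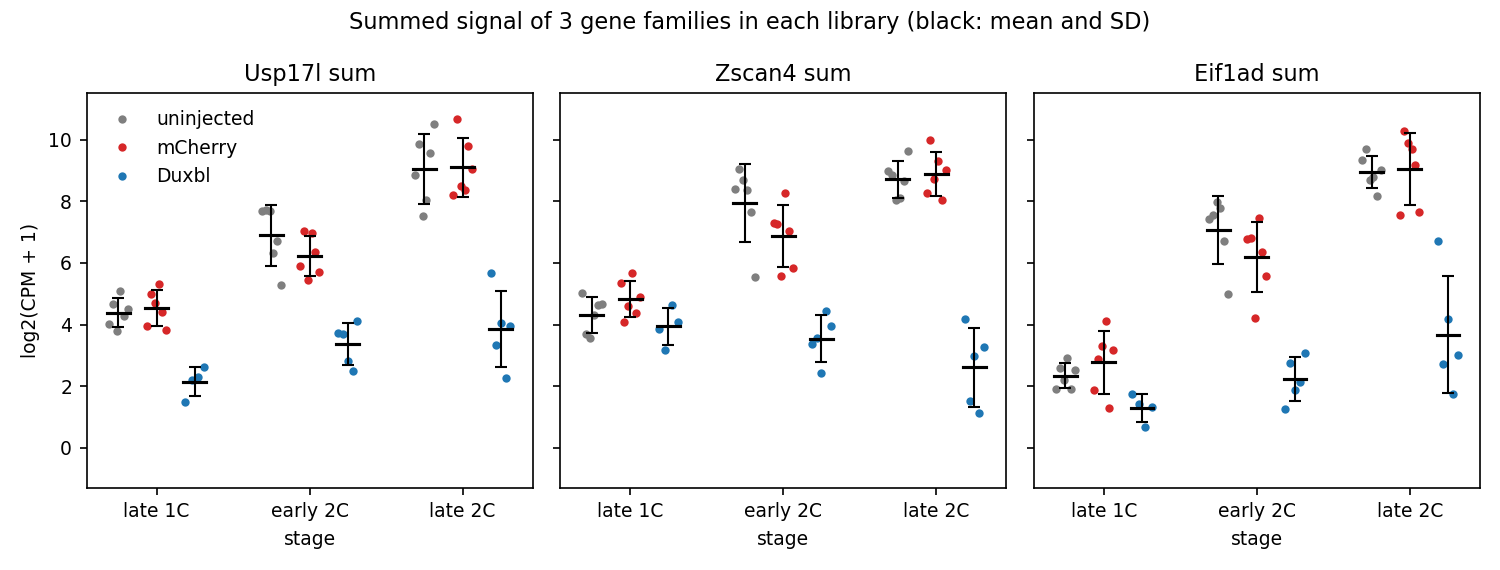
Summed signal of the Usp17l, Zscan4 and Eif1ad genes in every library, as log2(CPM + 1) on the y axis, by stage on the x axis, with black bars for mean and SD. At late 1C the Duxbl libraries of the Usp17l sum (1.82 to 5.11 CPM) lie below all mCherry and uninjected libraries, those of Zscan4 overlap with both, and those of Eif1ad (0.609 to 2.34 CPM) overlap with mCherry but lie below all uninjected libraries.

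A wider list of 2-cell transcripts, which holds the Zscan4 and Eif1ad genes and Zfp352, was followed beside the family. Of 20 genes of that list in the table, 0 of 14 tested were called at late 1C, 8 of 17 were called lower and 0 higher at early 2C, and 19 of 20 lower and 1 higher at late 2C in Duxbl against mCherry embryos. Of all genes tested, 0.0144%, 0.354% and 29.0% were called lower at the 3 stages, and 27.2% higher at late 2C. The count of 0 at late 1C thus lay near the share over all genes. The list's median differences were -0.37, -2.56 and -4.89, against -0.01, 0.0032 and -0.04 over all genes tested. The smallest adjusted p was that of Eif1ad8 (-3.60) at early 2C and of Zscan4a (-6.77) at late 2C, and Zfp750, a zinc finger gene that in uninjected embryos fell by 4.15 between early and late 2C, was the one that was higher (1.52, SE 0.54, limma adjusted p 0.0202).

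Deubiquitinases outside the family were followed in the same comparisons. Of 91 other deubiquitinase genes in the table, 0 of 89 were called at late 1C and 0 of 90 at early 2C in Duxbl against mCherry embryos. Among all genes tested, limma called 1 higher and 3 lower of 20777 at late 1C. It called 5 higher and 75 lower of 21180 at early 2C, so both counts of 0 lay near the share over all genes. At late 2C 33 of 91 were higher and 29 lower, where 27.2% and 29.0% of all genes tested were called higher and lower, and their median was 0.25 against -0.04 over all genes. Usp50 (-4.31, SE 0.32), whose product lacks an intact catalytic centre, and Otud3 (-3.53), an ovarian tumour domain protease, were among the lower. Usp15 (1.97, SE 0.20), which acts on SMAD proteins, and Usp8 (1.96), which acts on endosomal cargo, were among the higher. In uninjected embryos 0 of 91 rose and 2 fell (Psmd7 and Usp14, both components or partners of the proteasome) between late 1C and early 2C, the step in which all 5 Usp17l genes rose and in which 1.12% and 1.78% of all genes tested were called higher and lower. In the next step 30 rose, Usp50 by 4.51, and 33 fell, Usp46 by 3.73, where 30.8% and 26.3% of all genes tested were called higher and lower.

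Genes of ubiquitin itself and its activation, 6 tested, were not called between Duxbl and mCherry embryos before late 2C. Of all genes tested, 0.0144% were called lower at late 1C and 0.354% at early 2C. At late 2C 3 of the 6 were called lower and 1 higher, where 29.0% and 27.2% of all genes tested were. At late 2C, Rps27a (-4.05, SE 0.39), which encodes ubiquitin fused to a ribosomal protein, and Uba1 (-1.27), the activating enzyme, were lower. The polyubiquitin gene Ubb was higher by 0.49 (SE 0.20, limma adjusted p 0.0406).

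Proteins reported as substrates of the human relative of these enzymes were followed as transcripts only. Of 6 tested genes of the 7 in the table, 0 were called at late 1C or early 2C, where 0.0144% and 0.354% of all genes tested were called lower. At late 2C 2 were lower, where 29.0% of all genes tested were. These were Snai1 (-3.89, SE 0.41), a repressor of epithelial genes, and Rce1 (-3.07, SE 0.40), a protease of prenylated proteins. Cdc25a, the cell cycle phosphatase, differed by -0.19 (SE 0.24), -0.05 (SE 0.39) and -0.55 (SE 0.35) at the 3 stages and was not called. In uninjected embryos Cdc25a fell by 1.60 (SE 0.34, limma adjusted p 0.00228) between late 1C and early 2C. RNA levels do not show what became of these proteins.

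The clusters lie among olfactory receptor genes. Within 100 kb of a member lay 21 other genes of the table, of which 10 to 13 passed the filter. In Duxbl against mCherry embryos 0 of 10 were called at late 1C, near the 0.0144% of all genes tested that were called lower. At early 2C 1 of 11 was called, where 0.354% of all genes tested were called lower. That 1, a short gene with no symbol (ENSMUSG00002076059, 103065013 to 103065133, plus strand), lies within the span of Usp17lc and was lower by -2.38 (SE 0.35, limma adjusted p 8.77e-04), so reads in its span can belong to either. At late 2C 2 of 11 were higher and 5 lower, where 27.2% and 29.0% of all genes tested were. Of those, Gm45272 was higher by 2.39 and ENSMUSG00002076718, a short gene near Usp17ld, and Gm45556 were lower by -2.86 and -1.87.

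Across the 9 group means, the gene most like the family sum was Zfp352, a zinc finger gene of the 2-cell stage, with Pearson's r of 0.990 on log2(CPM + 1) among 16145 genes compared. Its means were 9.35, 115 and 264 CPM in uninjected, 10.9, 64.0 and 327 in mCherry and 1.72, 6.41 and 25.3 in Duxbl embryos at the 3 stages. Gm38271 (0.987), Gm29761 (0.985), Pramel11 (0.982) and Arhgap22 (0.981) followed, then Rpl23a-ps4, Gm20767, Gm8016, Gm4526 and Gm13360 (0.978 to 0.980). The members' own values were 0.981 for Usp17lc, 0.951 for Usp17ld, 0.944 for Usp17lb, 0.871 for Usp17la and 0.813 for Usp17le. Each member is a part of the sum, so its r cannot be set beside those of genes outside the family. All these r values are descriptions over 9 means that share libraries and scaling, and they say nothing of shared control.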

How the data were processed

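RNA sequencing libraries of 50 embryo pools were analysed. The SMART-Seq v4 and Nextera XT kits, named per the labels' protocols, do not mark the strand, so reads of overlapping genes cannot be separated. Genome mm39 and the tools STAR 2.7.10a, featureCounts 2.0.4, Trimmomatic 0.39, DESeq2 1.36.0, DESeq and Picard 3.0.0 are named, without roles, per the submitters' processing notes. The authors deposited whole numbers that were treated as a score, not as counts, because some small whole numbers never occur in some libraries, as in counts scaled per library and rounded. Every gene reached at least 6 in some library. How reads shared by near-identical copies were counted is not given in the sources used here, and no counting interval was computed. All 50 value columns were mapped to samples by title.

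Tests used limma 3.58.1 (R 4.3.3) on log2(CPM + 1), the design for values that are not counts, with totals multiplied by trimmed-mean factors (30% of ratios and 5% of abundances trimmed). The filter kept genes that reached a value of 10 in a number of libraries equal to the smallest group's size. Comparisons within a stage were fitted on its 3 groups with factors of that stage. Steps between stages and the interaction were fitted on all 9 groups. Printed CPM levels use factors over all 50 libraries. The variance prior was trended and robust, tests were two-sided, Benjamini-Hochberg adjustment ran over all genes tested, and the threshold was 0.05. The code was tested on simulated data. Uninjected and mCherry groups served as controls, and comparisons with Duxbl share them. No p was computed for the sum.

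All 5 members are named. Likeness names the 10 genes with the highest r and a group mean of at least 5 CPM. Up to 3 called neighbours per comparison, and up to 4 called list genes per direction with the smallest adjusted p, could be named. A result for 1 list gene is not reported here. The members and lists were chosen with earlier results of these data known, and the design left it open whether scaling factors were taken within a stage. Alternatives covered scaling, pseudocount, filter, weights, fit, control group, block and omissions. Library numbers recur across groups, but the labels do not say what they share. For Duxbl against mCherry at late 1C, deviations of same-numbered libraries had r above 0.1 in 4 of 4 pairs (0.183 to 0.309). In 2 of these 4 the Duxbl library was most like the mCherry library of its own number. In the other 11 comparisons checked at least 1 pair did not exceed 0.1. Sequences came from RefSeq (GRCm38.p6) and GENCODE M21 (GRCm38), aligned with Biopython 1.88.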

Additional observations from a re-analysis of the deposited data

Results flagged for a closer look

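Single libraries stood apart from their group in 13 of the 54 sets of values checked for a gap at either end. The check is made for independent, normally spread values. These were CPM with a floor at 0, and the sets share libraries and include the sum of the members. How often chance would give such gaps here was not tested. In Duxbl embryos at late 2C, library 1 stood apart with 3.26 CPM of Usp17la, 26.4 of Usp17ld and 50.2 of the family sum. In mCherry embryos at late 2C, library 3 stood apart with 72.6 CPM of Usp17la, 289 of Usp17lc and 15.7 of Usp17le. In uninjected embryos at late 2C, library 7 stood apart with 29.3 CPM of Usp17la, 59.2 of Usp17ld and 22.4 of Usp17le. Other single values were 0.296 CPM of Usp17la in Duxbl library 7 at late 1C, 1.48 CPM of Usp17la in Duxbl library 4 at early 2C, 8.53 CPM of Usp17lb in mCherry library 5 at late 1C, and 39.0 CPM of Usp17ld in mCherry library 3 at early 2C.

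The difference between Duxbl and mCherry embryos was not the same at early and late 2C for 2 members. limma's interaction term was -3.99 for Usp17lb and -2.01 for Usp17lc. By this term, 23.6% of all genes tested were called lower. Usp17lc was not called with voom weights or with uninjected embryos as the control, whereas Usp17lb was.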

How the results depend on the processing

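Of 1452 recomputed values for single members, 1356 kept direction and side of the threshold, 31 lost a call, 25 gained one and 40 changed sign. With the replicate block, the library number as a term, all 70 kept their call, and so did every count (2, 3 and 5 members lower in Duxbl than mCherry embryos at the 3 stages). The number of members called lower at late 1C, 2 here, was 1 without a filter, and 0 with voom weights, with uninjected controls, in a fit of all 9 groups and without the libraries numbered 4 and 5, and 1 to 2 when single libraries were left out (Duxbl 4 or 5 gave 1). At early 2C, 3 became 0 with voom weights and 5 with uninjected controls or a fit of the 2 groups compared. At late 2C it was 5 throughout. In uninjected embryos, late against early 2C, 1 became 2 with library totals alone, voom weights or a fit of 2 groups, and 1 to 2 under omissions. In mCherry embryos, early 2C against late 1C, 2 became 1 with a pseudocount of 0.1 CPM, 0 with voom weights, 4 in a fit of 2 groups and 1 to 3 under omissions. In Duxbl embryos 0 became 1 with that pseudocount in the first step, and 0 to 1 under omissions in the second. The count of members whose Duxbl difference widened from early to late 2C, 2, was 1 with voom weights or uninjected controls. The log2 ratio of family sums at early 2C was -2.98, and -3.77 with uninjected controls. At late 2C it was -5.17, and -5.97 to -4.69 under omissions, with the extremes without Duxbl library 1 and mCherry library 3. The cause of these shifts was not tested. Uncalled differences changed sign as follows. Usp17lb in Duxbl against mCherry at late 1C was 0.053 without libraries 4 and 5, and -0.36 to 0.060 under omissions. Usp17le in mCherry against uninjected at late 1C was -0.058 with the pseudocount, -0.34 with voom weights and -0.10 to 0.26 under omissions. Late against early 2C, with library totals alone, Usp17la in mCherry was 0.032 and Usp17lc in Duxbl 0.026, the latter 0.017 in a fit of 2 groups. The Duxbl difference of Usp17ld at early 2C less that at late 1C was -0.78 with uninjected controls and -0.022 to 0.61 under omissions. That of Usp17le at late less early 2C was -0.12 with library totals, -0.80 with the pseudocount and -1.83 with voom weights. Omissions also turned, in mCherry against uninjected at late 2C, Usp17la (-0.67 to 0.094), Usp17lb (-0.38 to 0.24) and Usp17ld (-0.18 to 0.36). In Duxbl embryos they turned Usp17la from late 1C to early 2C (-0.028 to 0.31), and from early to late 2C Usp17la (-0.25 to 0.40), Usp17lc (-0.48 to 0.31) and Usp17ld (-1.22 to 0.0093). In uninjected embryos they turned Usp17ld from early to late 2C (-0.062 to 0.46). Relative to all genes, library totals moved the median by 0.13 and 0.14 from early to late 2C in uninjected and mCherry embryos. The scaling over all 50 libraries, the omission of libraries 4 and 5 the uninjected control for the sum and the ratios of the family sums without single Duxbl libraries were chosen after seeing the data. Values that look scaled were not taken to give the depth, so what depth limits could not be stated.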
